A study of Mus musculus with 12 samples.

Results

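The comparison described here is the difference between genotypes in the response to culture: the change from the R0D3 to the R40D3 culture in LysM-cKO cells minus the same change in Wt cells. All 8 libraries from the osteoclast cultures entered it, of 12 in the whole series; the other 4 are embryonic forelimbs and were not used. The 4 groups were Wt R0D3, Wt R40D3, LysM-cKO R0D3 and LysM-cKO R40D3, with 2 libraries each, numbered 1 and 2. The cells were mouse bone marrow cells grown for 3 days with M-CSF from a conditioned medium, equivalent to 20 ng/ml, then replated and stimulated with RANKL at 40 ng/ml. The labels do not spell out R40 and R0, and the protocol text is the same for all 8 libraries, so both names are used as given. In LysM-cKO mice Impdh2 was deleted in cells of the myeloid lineage. LysM-Cre acts only in cells that express lysozyme M, and other cells of the marrow keep the gene. The age and sex of the mice are not given in the labels, which also do not say whether replicates came from separate mice, so p-values measure only the spread between these libraries.

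Impdh2 encodes inosine monophosphate dehydrogenase, the enzyme that commits inosine monophosphate to the synthesis of guanine nucleotides. M-CSF keeps monocyte and macrophage precursors alive, and RANKL, acting through its receptor RANK, turns them into osteoclasts. During that change the transcription factor NFATc1 switches on genes for cell fusion, for adhesion to bone and for the secretion of acid and proteases, mitochondria multiply, and genes of resting macrophages are switched off.

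The deleted gene was low in every LysM-cKO library. Impdh2 (chromosome 9, 108560286 to 108565584, GRCm38) had 22.3 and 28.2 CPM in Wt R0D3, 25.7 and 27.7 in Wt R40D3, 7.36 and 7.03 in LysM-cKO R0D3 and 7.72 and 8.38 in LysM-cKO R40D3, where CPM are counts scaled to the size of the library. All 4 LysM-cKO libraries lay below all 4 Wt libraries, in both cultures. The genotype difference was -1.81 on the log2 scale at R0D3 (adjusted p = 0.0324) and -1.73 at R40D3 (adjusted p = 0.0386), by edgeR's quasi-likelihood test with Benjamini-Hochberg adjustment. In each culture 2 of 14030 genes (0.0143%) passed that test, and Impdh2 was one of them. Its response to culture was 0.08 log2 in Wt and 0.16 in LysM-cKO, and neither passed. Exons of Impdh2 overlap those of Ndufaf3, and how such reads were counted is not given in the sources used here. The related gene Impdh1, which encodes the other isoform of the enzyme, had 33.1 and 30.7 CPM in Wt R0D3, 31.0 and 31.3 in Wt R40D3, 31.8 and 36.9 in LysM-cKO R0D3 and 29.6 and 31.6 in LysM-cKO R40D3, and the groups overlapped.

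Total counts ran from 16009146 to 19221865 per library, and 14030 of 55401 genes passed the filter on low counts. The first principal component held 61.2% of the variance and separated the cultures, and the second, with 18.6%, separated replicate number 1 from number 2. In all 8 libraries the Y-linked gene Ddx3y was well covered, with 926 to 1584 counts. Markers of osteoclasts differed in their R0D3 level. Acp5, which encodes tartrate-resistant acid phosphatase, was at 12.4 to 15.8 CPM at R0D3, and at R40D3 it lay between 2854 and 9379 CPM. Mmp9 was at 4.73 to 13.2 CPM at R0D3 and Oscar at 0 to 0.06. Higher at R0D3 were Ctsk, at 23.9 to 63.0 CPM, Nfatc1, at 76.0 to 87.8, and the proton pump subunit gene Atp6v0d2, at 195 to 275. At R40D3 Nfatc1 lay between 287 and 479 CPM and Atp6v0d2 between 531 and 1117. By these levels the osteoclast label of the libraries fits R40D3 more closely than R0D3. Summed levels of 16 stromal marker genes, collagens among them, lay between 902 and 3012 CPM and were lowest in both LysM-cKO libraries of replicate 2. Summed levels of 15 neutrophil genes lay between 184 and 721 CPM. Both cell types can be present in marrow cultures, and their part in the results was not tested. In bulk RNA, fewer cells of a type and less RNA per cell cannot be told apart.

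No single gene passed the test for a difference in response between genotypes. With edgeR, 0 of 14030 genes had an adjusted p under 0.05 (0%), 248 (1.77%) had an unadjusted p under 0.05, and DESeq2 also called 0. The response itself was broad. Averaged over both genotypes, 2193 genes (15.6% of those tested) rose from R0D3 to R40D3 and 1442 (10.3%) fell. Tested alone, the response passed in 2370 genes (16.9%) in Wt and in 1422 (10.1%) in LysM-cKO. With the replicate number as a block these counts became 3976 (28.3%) and 2983 (21.3%), while the test for a difference in response stayed at 0, with 841 genes (5.99%) at an unadjusted p under 0.05. A gene called in only one genotype is not shown to differ between them, and the lists below therefore rest on the difference in response itself.

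To describe where responses were smaller, equal or larger in LysM-cKO, the genes called in the average response were used, since that average favours neither genotype. Of these, 172 had at most 3 counts in every library of the lower culture in at least one genotype and were set apart, because a fold change from so few reads depends on the constant added to it. The remaining 3463 are called response genes here: 2032 rose and 1431 fell. For each, the LysM-cKO response minus the Wt response was computed on log2 CPM within replicate number 1 and within number 2. A gene was called blunted where the LysM-cKO response was smaller by at least 0.5 log2 in both numbers, enlarged where it was larger by that much in both, kept where the difference was under 0.5 in both, and divided otherwise. These classes describe the 8 libraries and carry no test.

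Most response genes were kept by this rule, though few of those that rose most. Among genes that rose, 1457 (71.7%) were kept, 121 (5.95%) blunted, 23 (1.13%) enlarged and 431 (21.2%) divided. Among genes that fell, 1243 (86.9%) were kept, 18 (1.26%) blunted, 19 (1.33%) enlarged and 151 (10.6%) divided. Over all 14030 genes, whether or not they responded, the difference was under 0.5 in both numbers in 71%, at or below -0.5 in both in 3.62% and at or above 0.5 in both in 2.16%. Rising genes were thus kept in a share near that of all genes, and falling genes in a larger one. The share of rising genes that were blunted lay above the share of all genes with a difference of that sign. The shares of rising genes that were enlarged and of falling genes that were blunted or enlarged lay below the shares of all genes. In 3461 of the 3463 response genes both genotypes changed in the same direction, which choosing genes by the average response favours. The responses had a Pearson correlation across these genes of 0.966, which that choice also raises, against 0.883 over all 14030 genes. Both values describe genes that are not independent.

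**Figure D1:**
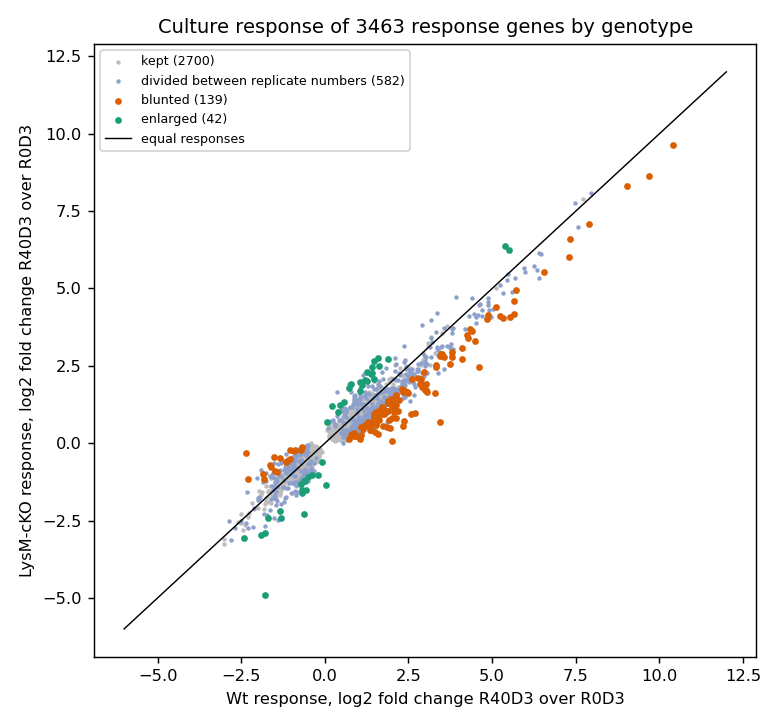
Each point is 1 of 3463 response genes, with its log2 fold change from R0D3 to R40D3 in Wt on the x axis and in LysM-cKO on the y axis, coloured by class; the line marks equal responses. Most points follow the line, and the 139 blunted genes (121 that rose and 18 that fell) lie nearer to 0 in LysM-cKO than in Wt.

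The rise was somewhat smaller in LysM-cKO across many genes. The median rise was 0.82 log2 in Wt and 0.63 in LysM-cKO, and the median difference was -0.18, or -0.20 in replicate number 1 and -0.15 in number 2. The rise was smaller in LysM-cKO in both numbers in 1247 of 2032 genes (61.4%) and larger in both in 224 (11.0%). Over all genes tested, the difference was below 0 in both numbers in 32.8% and above 0 in both in 28.4%. The fall was also a little smaller, with medians of -0.55 in Wt and -0.46 in LysM-cKO. Signed so that below 0 means a smaller response, the median difference of falling genes was -0.08 (-0.11 and -0.06 in the 2 numbers). Of the 1431 falling genes, 706 (49.3%) fell less in both numbers and 268 (18.7%) fell more in both.

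The difference in log2 was wider for genes that rose more, though not as a share of the response. Among rising genes with an average response under 1 log2 (1353 genes) the median difference was -0.14, and 1.48% were blunted. Between 1 and 2 (463 genes) it was -0.28 with 10.4% blunted, between 2 and 4 (159 genes) -0.39 with 22.0%, and at 4 or more (57 genes) -0.56 with 31.6%. In the same order 1190, 234, 31 and 2 genes were kept. The median rise in these groups was 0.57, 1.44, 2.88 and 5.38 log2 in Wt and 0.45, 1.17, 2.41 and 4.86 in LysM-cKO. A fixed 0.5 log2 is a smaller part of a larger response, so the share blunted can grow through the rule itself. The widening in log2 was steeper in number 1, where the medians went from -0.15 to -0.87, than in number 2, where they went from -0.14 to -0.27. Falling genes did not show this. Their signed medians were -0.09 under 1 log2 (1217 genes), -0.002 between 1 and 2 (186 genes) and 0.23 between 2 and 4 (28 genes), where 5 genes were enlarged and 0 blunted.

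**Figure D2:**
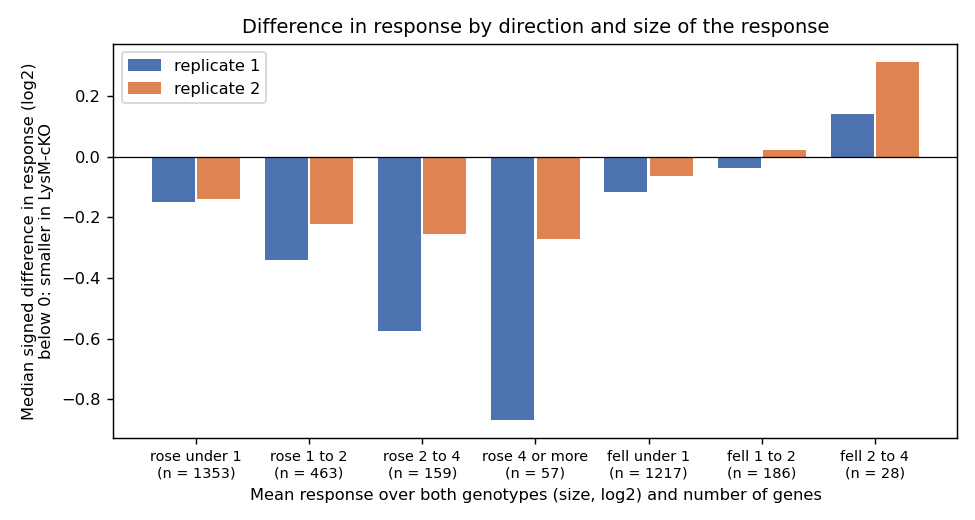
Bars give the median difference in response (log2, LysM-cKO minus Wt, signed so that below 0 is a smaller response in LysM-cKO) in replicate numbers 1 and 2, for response genes grouped on the x axis by direction and size of the average response. The bars of rising genes go from -0.15 and -0.14 to -0.87 and -0.27, and those of the 28 genes that fell most lie above 0.

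In blunted rising genes the genotypes differed in both cultures. Their median rise was 2.13 log2 in Wt and 1.25 in LysM-cKO, and 61.8% was the median share of the Wt response, as a ratio of log2 values. LysM-cKO lay higher than Wt at R0D3 in 114 of the 121 genes (median 0.30) and lower at R40D3 in 116 (median -0.49). The 23 enlarged rising genes had a median rise of 1.25 in Wt and 2.04 in LysM-cKO, and LysM-cKO was lower at R0D3 in 19 of them and higher at R40D3 in 20. The 18 blunted falling genes had median responses of -1.39 and -0.53, and LysM-cKO lay higher at R40D3 in 18 of 18. The 19 enlarged falling genes had -0.67 and -1.51, with LysM-cKO higher at R0D3 in 17 and lower at R40D3 in 17. Both parts are what a difference of at least 0.5 is made of, so the counts describe where it arose and test nothing.

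**Figure D3:**
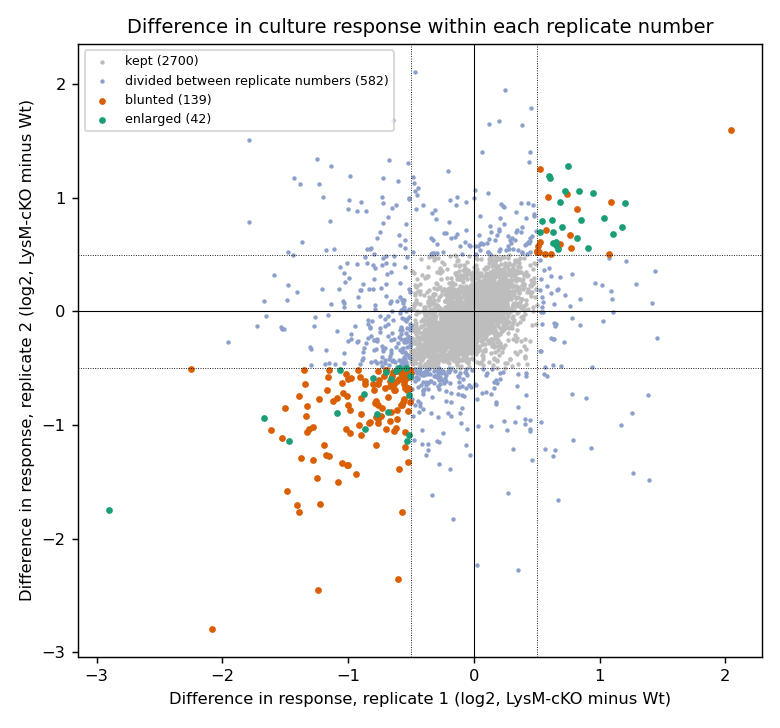
Each point is 1 of 3463 response genes, with the difference in response (log2, LysM-cKO minus Wt) within replicate number 1 on the x axis and within number 2 on the y axis; dotted lines mark 0.5 in either direction. Kept genes (2700) fill the central square, and the 582 divided genes lie past a line in at least one number without meeting the rule for blunted or enlarged.

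The values within the numbers went together only loosely. Across the 3463 response genes the difference in number 1 and that in number 2 had a Pearson correlation of 0.34 (0.27 over rising and 0.30 over falling genes), and over all 14030 genes it was 0.17.

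The machinery of bone resorption was the gene list with the lowest median difference among the 27 lists of pathways and functions examined, leaving aside the marker lists of other cell types. Of its 18 genes tested, 17 rose in Wt and 16 in LysM-cKO, against 11.4% and 6.99% of all genes. With the replicate number as a block these counts were 17 and 16 too, against 16.7% and 13% of all genes. The median response was 3.07 log2 in Wt and 2.43 in LysM-cKO, and the median difference was -0.50 (-0.60 in number 1 and -0.41 in number 2), where all genes tested had -0.02. Rising genes of any kind had -0.39 at average responses of 2 to 4 log2 and -0.56 at 4 or more, with 22.0% and 31.6% blunted. A median of this size was therefore not particular to bone resorption. In 15 of 18 genes the difference was below 0 in both numbers. Among the 16 response genes of the list 6 were blunted, 6 kept and 4 divided.

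Mmp9, which encodes a matrix-degrading gelatinase, had 13.2 and 4.79 CPM in Wt R0D3, 10540 and 14178 in Wt R40D3, 13.1 and 4.73 in LysM-cKO R0D3 and 5057 and 9072 in LysM-cKO R40D3. Both LysM-cKO libraries at R40D3 lay below both Wt libraries, while the R0D3 values of the genotypes overlapped. The response was 10.41 log2 in Wt and 9.62 in LysM-cKO (adjusted p = 3.91e-04 and 7.06e-04, edgeR), and the difference was -0.79 ± 0.80 (SE, n = 2 libraries a group), which did not pass.

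Acp5 had 15.8 and 13.1 CPM in Wt R0D3, 5668 and 9379 in Wt R40D3, 14.5 and 12.4 in LysM-cKO R0D3 and 2854 and 5800.1 in LysM-cKO R40D3. Its R40D3 ranges overlapped, since the LysM-cKO library of number 2 lay just above the Wt library of number 1, but LysM-cKO was lower within each number. The difference in response was -0.69 log2, on responses of 9.02 in Wt and 8.33 in LysM-cKO. Ctsk, which encodes cathepsin K, the main collagen-degrading protease of osteoclasts, had 60.6 and 40.3 CPM in Wt R0D3, 7453 and 11631 in Wt R40D3, 63.0 and 23.9 in LysM-cKO R0D3 and 3760.5 and 7367 in LysM-cKO R40D3. LysM-cKO was lower within each number at R40D3, and in number 2 it was also lower at R0D3, so the within-number differences were -1.04 and 0.09 and the gene counted as divided.

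The other blunted members of the list were Ckb, which encodes a creatine kinase, the sodium-proton exchanger Slc9b2, the chloride-bicarbonate exchanger Slc4a2 and the sorting nexin Snx10. Their differences were -0.76, -0.74, -0.55 and -0.62 log2, and LysM-cKO was lower within each number at R40D3 for all 4. Slc37a2, a sugar-phosphate transporter, had 507 and 455 CPM in Wt R0D3, 1606 and 2082 in Wt R40D3, 486 and 458 in LysM-cKO R0D3 and 1031 and 1517 in LysM-cKO R40D3. Both LysM-cKO libraries at R40D3 lay below both Wt libraries, and its difference of -0.51 counted as divided because number 2 fell just short of the size used (-0.58 and -0.47). Kept members included the proton pump subunits Tcirg1 (1.20 log2 in Wt and 0.90 in LysM-cKO) and Atp6v0d2 (2.05 and 1.70) and the chloride channel gene Clcn7 (1.09 and 0.77). The median of the list moved with the LysM-cKO R40D3 libraries: it was -0.15 without replicate 1 and -0.83 without replicate 2.

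Some of the best known osteoclast genes were nearly silent at R0D3 and are given by their R40D3 levels. Of the 172 genes set apart, 161 rose and 11 fell. Among the 161 the median log2 ratio of LysM-cKO to Wt at R40D3 was -0.71 in number 1 and -0.41 in number 2, and 103 (64.0%) were lower in LysM-cKO in both, against 34.3% of all genes tested. Rising response genes also tended to be lower in LysM-cKO at R40D3. By the fitted difference, which does not ask for both numbers, 1213 of 1457 kept, 368 of 431 divided, 116 of 121 blunted and 3 of 23 enlarged rising genes were lower. The 64.0% is therefore not shown to be particular to the genes set apart.

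Oscar, a co-stimulatory receptor of osteoclasts, had 284 and 463 CPM in Wt R40D3 and 119 and 268 in LysM-cKO R40D3. Steap4, a metalloreductase, had 261 and 374 against 94.7 and 194 CPM in the same groups. Car2, the carbonic anhydrase that supplies protons for acid secretion, had 181 and 239.7 against 82.4 and 154 CPM. In all 3 genes both LysM-cKO libraries lay below both Wt libraries. Ocstamp, a protein of osteoclast fusion, had 163 and 219 against 90.7 and 154 CPM, and Scin, an actin-severing protein, 157 and 197 against 92.1 and 143 CPM. Rufy4, a regulator of lysosome and autophagy traffic, had 100.4 and 139 against 53.5 and 88.2 CPM. These 3 were also lower in both LysM-cKO libraries than in either Wt library.

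None of the 6 passed the genotype test at R40D3 in the fit without pairing (adjusted p from edgeR of 0.648, 0.648, 0.648, 0.648, 0.648 and 0.648 in the order given). With the replicate number as a block, 30 genes (0.214%) passed that test, against 3 (0.0214%) at R0D3, and 4 of the 6 were among the 30. Their log2 differences were -1.02 for Oscar (adjusted p = 0.00283, edgeR), -1.20 for Steap4 (0.00818), -0.88 for Car2 (0.0236) and -0.78 for Rufy4 (0.00818). Ocstamp and Scin did not pass there (0.0678 and 0.0746). In LysM-cKO 17 of the 30 genes were higher and 13 lower. Among the higher ones were Ighm (0.92 log2, adjusted p = 0.0220, edgeR) and Lama3 (1.31, 0.00603), both described below. These are differences in level at R40D3 and not tests of the difference in response.

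Adhesion and the actin ring followed the same direction with smaller values. Of 23 podosome and sealing zone genes tested, 14 rose and 2 fell on average over the genotypes; the list's median response was 0.93 log2 in Wt and 0.68 in LysM-cKO, and the median difference -0.23 (-0.27 and -0.23). In 15 genes the difference was below 0 in both numbers and in 4 above 0 in both. Of 15 response genes 2 were blunted, the integrin subunits Itgb3 and Itgav, which pair as the vitronectin receptor of osteoclasts. Itgb3 had 16.02 and 8.21 CPM in Wt R0D3, 519 and 761 in Wt R40D3, 15.5 and 12.4 in LysM-cKO R0D3 and 282 and 579 in LysM-cKO R40D3. LysM-cKO was lower within each number at R40D3, although the groups overlapped, and the difference in response was -0.77 ± 0.59 log2. Itgav had 104 and 105 CPM in Wt R0D3, 328 and 449.6 in Wt R40D3, 136 and 153 in LysM-cKO R0D3 and 299 and 407 in LysM-cKO R40D3, with both LysM-cKO libraries above both Wt libraries at R0D3 and an overlap at R40D3. Its difference was -0.60. The kept members Rac2, a small GTPase, and Pxn, which encodes the adhesion adaptor paxillin, had differences of -0.32 and -0.32.

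Most response genes among the receptors and transcription factors at the head of the pathway were kept, as were most response genes of any kind. Of 22 transcription factor genes tested 14 were response genes, of which 10 were kept, 4 divided and 0 blunted, and the median difference was -0.02 (-0.13 and -0.07). In 16 of the 22 the difference was under 0.5 in both numbers, a share near the 71% of all genes. Nfatc1 had 87.8 and 79.5 CPM in Wt R0D3, 413 and 479 in Wt R40D3, 84.9 and 76.0 in LysM-cKO R0D3 and 287 and 382 in LysM-cKO R40D3. Both LysM-cKO libraries lay below both Wt libraries at R40D3. It rose by 2.42 log2 in Wt and 2.06 in LysM-cKO (adjusted p = 2.63e-04 and 7.28e-04, edgeR), a difference of -0.36 ± 0.21 that did not pass. With -0.48 and -0.26 in the numbers, Nfatc1 counted as kept. As a ratio of log2 values its LysM-cKO response was 85.1% of that in Wt, below the 92.4% of Mmp9, which counted as blunted. Spi1, the PU.1 factor of myeloid cells, differed by -0.11, and Jun, a subunit of AP-1, by -0.24. Fosl2, another AP-1 subunit, had responses of 3.46 and 2.90 and was divided (-0.67 and -0.42).

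Of 20 receptor and co-stimulation genes tested, 10 were response genes, with 8 kept and 2 blunted, and the median difference was -0.03. Including the genes set apart, 4 of the 20 had a difference at or below -0.5 in both numbers, against 3.62% of all genes. They were Itgb3, Siglec15 and, outside the response genes, Oscar and the calcitonin receptor gene Calcr. Oscar had at most 1 count in each R0D3 library, so its difference depends on the constant added. Among rising genes of any kind 22.0% were blunted at average responses of 2 to 4 log2 and 31.6% at 4 or more. The 4 are therefore not shown to be particular to this list. Tnfrsf11a, which encodes RANK, had 70.2 and 70.2 CPM in Wt R0D3, 150.2 and 175 in Wt R40D3, 79.5 and 81.9 in LysM-cKO R0D3 and 121 and 156 in LysM-cKO R40D3, and its difference of -0.43 was kept. Itgb3 is described above, and of the blunted members the other was Siglec15, a sialic acid receptor of osteoclasts, with 56.3 and 77.8 CPM in Wt R40D3 and 33.2 and 52.6 in LysM-cKO R40D3. The co-stimulatory receptor gene Trem2 fell in both genotypes (-1.004 and -0.77), as did the signalling chain gene Fcer1g (-0.58 and -0.46) and the integrin subunit gene Itgb5 (-0.75 and -0.59), and all 3 were kept.

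Among 15 fusion genes tested, 7 of 9 response genes were kept, and the median difference was -0.14 (-0.04 and -0.24). The blunted pair was Itgav and the tetraspanin gene Tspan5, with a difference of -0.51. Dcstamp, a membrane protein needed for fusion, had 2.27 and 0.995 CPM in Wt R0D3, 293 and 411 in Wt R40D3, 0.920 and 0.970 in LysM-cKO R0D3 and 155 and 300.3 in LysM-cKO R40D3. At R40D3 LysM-cKO was lower within each number. The responses were 7.73 log2 in Wt and 7.90 in LysM-cKO, a difference of 0.17 ± 0.81, and the gene was kept. Its R0D3 counts were 39 and 16 in Wt and 16 and 16 in LysM-cKO, so this class rests on few reads. The 4 response genes among 12 repressors of osteoclast formation were all kept. Bcl6 fell by 1.09 log2 in Wt and 1.17 in LysM-cKO. Irf8 had responses of -0.67 and -0.46, and Id2 -0.97 and -0.99.

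**Figure D4:**
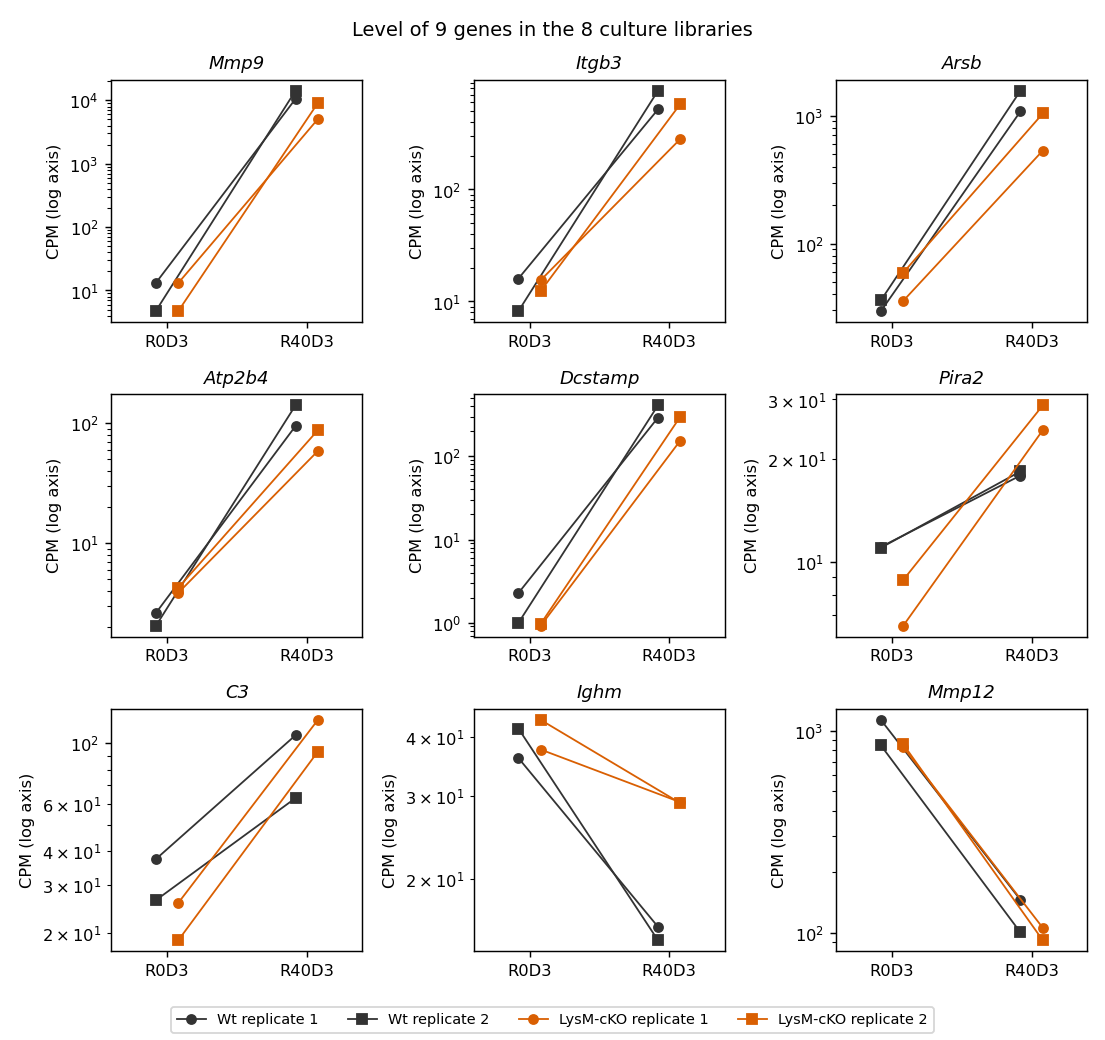
Each panel shows the CPM of 1 gene on a log axis in the R0D3 and R40D3 cultures, with lines joining the libraries of one genotype and replicate number. Lines of the LysM-cKO libraries are flatter than those of Wt for Mmp9, Itgb3, Arsb and Atp2b4, steeper for Pira2 and C3, flatter downward for Ighm, and alike in both genotypes for Dcstamp and Mmp12.

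Genes of the respiratory chain rose on average over the genotypes, in 33 of 36 complex I genes and in 37 of 39 genes of complexes II to V, and most differed by less than the size used for blunting. Of the complex I genes 27 rose in Wt and 8 in LysM-cKO in the fit without pairing, and 35 and 33 with the replicate number as a block, against 16.7% and 13% of all genes. The median response was 0.91 log2 in Wt and 0.67 in LysM-cKO. The median difference was -0.22 (-0.28 and -0.20), 30 of 36 genes were below 0 in both numbers and 0 above 0 in both. Yet 30 of 33 response genes were kept and 1, Ndufb6, was blunted, with a difference of -0.52. Of the genes of complexes II to V, 36 rose in Wt and 23 in LysM-cKO, or 38 in each with the block. The medians were 1.14 and 0.84, and the median difference was -0.25 (-0.30 and -0.22). There 35 genes were below 0 in both numbers, 0 above 0 in both, and 32 of 37 response genes were kept. Rising genes of any kind had median differences of -0.14 at average responses under 1 log2 and -0.28 between 1 and 2.

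Atp5b, a catalytic subunit of ATP synthase, had 489 and 528 CPM in Wt R0D3, 1327 and 1595 in Wt R40D3, 465 and 585 in LysM-cKO R0D3 and 938 and 1355 in LysM-cKO R40D3. LysM-cKO was lower within each number at R40D3, and the groups overlapped. It rose by 1.52 log2 in Wt and 1.13 in LysM-cKO (adjusted p = 0.00330 and 0.0152, edgeR), a difference of -0.40 ± 0.28. Ndufs1, a core subunit of complex I, had 71.9 and 69.6 CPM in Wt R0D3, 152 and 187 in Wt R40D3, 69.3 and 80.1 in LysM-cKO R0D3 and 125 and 159 in LysM-cKO R40D3. LysM-cKO was lower within each number at R40D3, with an overlap of the groups, and the difference was -0.33. Sdha, the catalytic subunit of succinate dehydrogenase, differed by -0.26 and Cox4i1, a subunit of cytochrome c oxidase, by -0.20.

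The TCA cycle and fatty acid oxidation list behaved alike: of 27 genes tested 22 rose in Wt and 18 in LysM-cKO (24 and 23 with the block), with a median difference of -0.25 (-0.31 and -0.19) and 21 genes below 0 in both numbers. Mdh2, mitochondrial malate dehydrogenase, was its 1 blunted gene, with 101 and 111 CPM in Wt R0D3, 459 and 585 in Wt R40D3, 94.4 and 121 in LysM-cKO R0D3 and 286 and 437 in LysM-cKO R40D3 and a difference of -0.55. Both LysM-cKO libraries at R40D3 lay below both Wt libraries. Cs, citrate synthase, differed by -0.35, and Ogdh, a subunit of oxoglutarate dehydrogenase, by -0.31. Of 44 mitochondrial ribosomal protein genes 29 were below 0 in both numbers and 0 above 0 in both, with a median of -0.11. Transcripts of the mitochondrial genome had a median of -0.17, with 7 of 13 below 0 in both, and mt-Cytb, the cytochrome b subunit, had responses of 0.76 and 0.53. These list medians depended on single libraries: without LysM-cKO R40D3 replicate 1 they were 0.03 for complex I, 0.01 for complexes II to V, -0.06 for the TCA cycle list and 0.03 for the mitochondrial ribosomal proteins. Without replicate 2 of the same group they were -0.49, -0.52, -0.46 and -0.28. With the replicate number as a block, these 4 medians stayed below 0 whichever of the 8 libraries was left out.

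**Figure D5:**
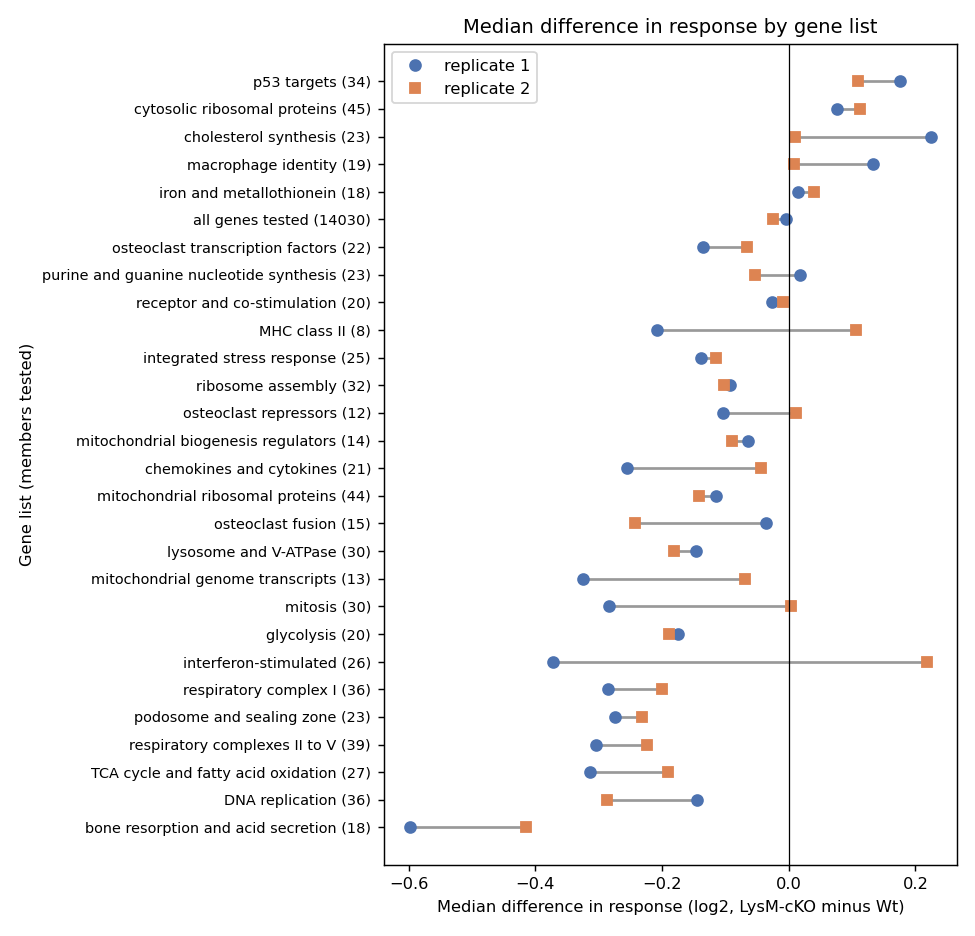
Points give the median difference in response (log2, LysM-cKO minus Wt) over the tested members of each list, in replicate number 1 and number 2, with the number of members in brackets. Bone resorption lies lowest at -0.60 and -0.41, the respiratory chain lists lie between -0.30 and -0.20, and cytosolic ribosomal proteins and p53 targets lie above 0 in both numbers.

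The lysosome and V-ATPase list held genes that rose and genes that fell. Of 30 tested, 15 rose and 7 fell on average, the median difference was -0.17 (-0.15 and -0.18), and of 22 response genes 19 were kept. The proton pump subunit gene Atp6v1e1 was its 1 blunted member, with responses of 1.72 and 1.16. The cathepsin genes of the list had responses of -0.86 and -0.75 for Ctsb, -0.70 and -0.57 for Ctsd and -0.73 and -0.36 for Ctss, with LysM-cKO values nearer to 0 and all 3 kept.

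The rule for named genes listed 8 blunted rising genes. Arsb, the lysosomal arylsulfatase B, had 29.7 and 36.0 CPM in Wt R0D3, 1079.6 and 1564 in Wt R40D3, 35.6 and 59.2 in LysM-cKO R0D3 and 533 and 1039 in LysM-cKO R40D3. Both LysM-cKO libraries at R40D3 lay below both Wt libraries, and the R0D3 values overlapped. It rose by 5.33 log2 in Wt and 4.05 in LysM-cKO (adjusted p = 5.44e-04 and 0.00185, edgeR), a difference of -1.28 ± 0.51 with -1.28 and -1.31 in the numbers. Atp2b4, a plasma membrane calcium pump, had 2.62 and 2.05 CPM in Wt R0D3, 94.3 and 140.4 in Wt R40D3, 3.85 and 4.24 in LysM-cKO R0D3 and 58.4 and 87.1 in LysM-cKO R40D3. The genotypes did not overlap in either culture: LysM-cKO was higher at R0D3 and lower at R40D3. Its difference was -1.48 ± 0.45. Cd109, a membrane protein that binds TGF-beta, had 9.61 and 13.4 CPM in Wt R0D3, 160.1 and 232 in Wt R40D3, 15.6 and 31.7 in LysM-cKO R0D3 and 122 and 193 in LysM-cKO R40D3, with LysM-cKO above Wt at R0D3 and an overlap at R40D3, and a difference of -1.35.

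Apoo, a protein of the mitochondrial contact site complex, had 2.097 and 1.24 CPM in Wt R0D3, 7.53 and 7.27 in Wt R40D3, 3.16 and 2.36 in LysM-cKO R0D3 and 3.81 and 6.10 in LysM-cKO R40D3, and the serine protease gene Htra3 had 4.54 and 3.48 CPM in Wt R0D3, 15.1 and 15.7 in Wt R40D3, 4.25 and 4.06 in LysM-cKO R0D3 and 5.55 and 8.69 in LysM-cKO R40D3. For both, the 2 LysM-cKO libraries at R40D3 lay below the 2 Wt libraries. Neither passed the test of response in LysM-cKO alone, where values were 0.82 and 0.76 log2 against 2.13 and 1.93 in Wt. Oit3 had responses of 1.75 and 0.54, Ccdc85c 5.53 and 4.07, and the noncoding transcript Lockd 3.44 and 0.68, the last at 0.408 to 7.45 CPM. Exons of Arsb, Atp2b4 and Lockd overlap other annotated genes, so their counts are uncertain to that extent.

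Kept rising genes with the largest responses included, beside Dcstamp, Grk3, a kinase of G protein-coupled receptors. Grk3 had 7.75 and 6.78 CPM in Wt R0D3, 214 and 291 in Wt R40D3, 6.55 and 4.43 in LysM-cKO R0D3 and 132 and 224 in LysM-cKO R40D3, with responses of 5.12 and 5.01 log2. Both R0D3 and R40D3 levels were lower in LysM-cKO within each number. The integrin subunit gene Itgb7 had responses of 3.19 and 3.42, the tyrosine phosphatase gene Ptpn3 3.65 and 3.78, the complexin gene Cplx2 3.51 and 3.57, and the small GTPase gene Rhof 3.34 and 3.06.

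Few genes rose more in LysM-cKO. Pira2, an activating paired immunoglobulin-like receptor of myeloid cells, had 11.1 and 11.0 CPM in Wt R0D3, 17.9 and 18.4 in Wt R40D3, 6.50 and 8.85 in LysM-cKO R0D3 and 24.4 and 28.8 in LysM-cKO R40D3. LysM-cKO lay below Wt in both libraries at R0D3 and above Wt in both at R40D3, so the groups did not overlap in either culture. It rose by 0.72 log2 in Wt and 1.79 in LysM-cKO (adjusted p = 0.0243 and 0.00151, edgeR), and the difference of 1.07 ± 0.24 had an unadjusted p of 0.00228 and did not pass after adjustment.

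Pira2 has neighbours on chromosome 7 of nearly the same sequence, so reads could be divided among them and each value is uncertain. These relatives were looked up after the values of Pira2 were seen. Lilra6 differed by 0.72 log2 (0.91 and 0.55 in the numbers) and Gm15448 by 0.85 (0.85 and 0.80), and both were enlarged at levels under 7 CPM. Gm14548 was divided, with -0.51 and 0.99. Pirb, the inhibitory receptor of the family and much the most abundant, had 283 and 309.7 CPM in Wt R0D3, 255 and 254 in Wt R40D3, 266 and 307 in LysM-cKO R0D3 and 289 and 302 in LysM-cKO R40D3. It was not a response gene, and its difference was 0.26 in both numbers. The promoters of 4 of these genes are shown to let a reader see how alike the copies are. In each, 68 bases around the letters GAGGAAGT, the core of a PU.1 site, are given from RefSeq (GRCm38.p6), 5′ to 3′ on the minus strand of chromosome 7, with those letters in capitals:
Pira2: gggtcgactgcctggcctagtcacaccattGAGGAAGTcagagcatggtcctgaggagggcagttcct
Lilra6: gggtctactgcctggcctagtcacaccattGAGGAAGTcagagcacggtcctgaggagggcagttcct
Gm15448: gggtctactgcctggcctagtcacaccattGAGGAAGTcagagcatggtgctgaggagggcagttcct
Pirb: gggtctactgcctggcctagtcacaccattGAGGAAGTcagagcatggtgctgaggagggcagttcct

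The windows lie at chr7:3845162-3845229, chr7:3915614-3915681, chr7:3825780-3825847 and chr7:3720465-3720532 in that order, and the capital letters begin 148, 150, 57 and 120 bases before the annotated start. The windows of Lilra6, Gm15448 and Pirb each differ from that of Pira2 at 2 positions. Pirb, which was not a response gene, has the same letters as the enlarged genes. GAGGAAGT, searched on both strands, is in 1052 of 32851 RefSeq promoters of 300 bases (3.20%), and a match is no evidence of a bound site.

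The complement gene C3 had 37.5 and 26.4 CPM in Wt R0D3, 107 and 62.8 in Wt R40D3, 25.8 and 18.8 in LysM-cKO R0D3 and 122 and 93.2 in LysM-cKO R40D3. LysM-cKO lay below Wt at R0D3 within each number and above it at R40D3, while the R40D3 groups overlapped. It rose by 1.41 log2 in Wt and 2.27 in LysM-cKO, a difference of 0.86 ± 0.42. The TNF family cytokine gene Tnfsf15 had responses of 1.88 and 2.72, the dehydrogenase gene Bdh2 5.38 and 6.38, the orphan receptor gene Gpr162 1.05 and 1.98 and the adaptor gene Grap 0.39 and 1.01. At R40D3 Bdh2 was lower in LysM-cKO within each number, with 13.9 and 21.9 CPM against 18.1 and 27.9 in Wt. Its larger fold came from R0D3 counts of 2 and 5 in LysM-cKO against 6 and 12 in Wt, and the difference was 0.999 ± 1.10. Both Gpr162 and Grap passed in LysM-cKO alone (adjusted p = 0.0316 and 0.0300, edgeR). In Wt alone neither passed in the fit without pairing (0.145 and 0.291), and with the replicate number as a block Gpr162 did (adjusted p = 9.25e-04) and Grap did not (0.102).

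Genes that fell were kept in most cases, those of macrophages among them. Of 19 macrophage identity genes tested 9 were response genes, all falling; 8 were kept and 1 enlarged, and the median difference was 0.06 (0.13 and 0.01). The scavenger receptor gene Cd36 had 1931 and 1787 CPM in Wt R0D3, 354 and 295 in Wt R40D3, 1801 and 2064 in LysM-cKO R0D3 and 416 and 369 in LysM-cKO R40D3. Both R40D3 groups lay far below both R0D3 groups, with LysM-cKO above Wt at R40D3 in both libraries, and it fell by 2.52 log2 in Wt and 2.30 in LysM-cKO. Msr1, another scavenger receptor gene, fell by 0.86 and 0.83. The complement genes C1qb and C1qc differed between genotypes by 0.11 and 0.09. The enlarged member was Fcgr1, the high-affinity IgG receptor gene, with 78.2 and 88.0 CPM in Wt R0D3, 64.7 and 42.8 in Wt R40D3, 66.9 and 86.9 in LysM-cKO R0D3 and 36.5 and 29.9 in LysM-cKO R40D3 and a difference of -0.58.

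Among kept falling genes Mmp12, macrophage elastase, had 1129.6 and 845 CPM in Wt R0D3, 145 and 100.2 in Wt R40D3, 829 and 856 in LysM-cKO R0D3 and 106 and 91.7 in LysM-cKO R40D3, and fell by 3.01 and 3.09 log2. Its R40D3 libraries lay below all R0D3 libraries, and the genotypes overlapped in both cultures. Zranb3, a DNA repair helicase gene, fell by 2.46 and 2.80, and Tpbgl by 2.60 and 2.53.

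In the fit without pairing, the smallest unadjusted p of the difference in response belonged to a blunted falling gene. Ighm, the heavy chain constant region of immunoglobulin M, had 36.1 and 41.7 CPM in Wt R0D3, 15.8 and 14.8 in Wt R40D3, 37.7 and 43.5 in LysM-cKO R0D3 and 29.1 and 29.0 in LysM-cKO R40D3. The R0D3 libraries overlapped between genotypes, and at R40D3 both LysM-cKO libraries lay above both Wt libraries. It fell by 1.35 log2 in Wt and 0.48 in LysM-cKO (adjusted p = 8.26e-04 and 0.0421, edgeR), and the difference of 0.86 ± 0.17 had an unadjusted p of 0.00113, which did not pass after adjustment. With the replicate number as a block its unadjusted p was 3.28e-04 (edgeR). Cd109, Arsb, C3 and Lockd had smaller ones in that fit, from 4.20e-05 to 2.79e-04, and none of these passed after adjustment. Of 15 B cell list genes, Ighm included, Igll1 was at 0 in all libraries, Cd79a had 1 to 23 counts and Ms4a1 0 to 11. Cd79b had 3 to 34 counts, Ebf1 18 to 70 and Blnk 2033 to 3305. The summed level of the list lay between 143 and 235 CPM, and the part of B cells in the Ighm values was not tested.

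The other blunted falling genes named were Lama3, a laminin chain gene, BC021767 and Abhd15. Lama3 had 51.9 and 42.4 CPM in Wt R0D3, 14.2 and 11.8 in Wt R40D3, 78.2 and 49.9 in LysM-cKO R0D3 and 36.0 and 28.7 in LysM-cKO R40D3, with both LysM-cKO libraries above both Wt libraries at R40D3, and its difference was 0.87. BC021767 differed by 0.67 and Abhd15 by 0.69. Exons of Lama3 and Abhd15 overlap other genes.

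Chemokine genes made up part of the enlarged falling genes. Of 21 chemokine and cytokine genes tested 7 were response genes, of which 4 were kept and 3 enlarged. Pf4, platelet factor 4, had 197 and 174 CPM in Wt R0D3, 178 and 106 in Wt R40D3, 266 and 227 in LysM-cKO R0D3 and 152 and 91.7 in LysM-cKO R40D3, with LysM-cKO above Wt at R0D3 and below it at R40D3 within each number, and a difference of -0.63 ± 0.41. The monocyte chemokine genes Ccl2 and Ccl7 differed by -0.61 and -0.59. Kept members were Ccl3, Ccl4, Ccl6 and Ccl9, of which Ccl9 rose and the others fell. Cxcl14, another chemokine gene outside that list, had 5.18 and 6.59 CPM in Wt R0D3, 2.67 and 2.08 in Wt R40D3, 6.15 and 14.2 in LysM-cKO R0D3 and 1.43 and 2.40 in LysM-cKO R40D3 and a difference of -1.12. Nanos1 and Plekhh2 differed by -1.11 and -0.83, and in both the LysM-cKO R0D3 library of replicate 2 was the highest of all 8. Pf4 made up most of the summed level of 15 erythroid and megakaryocytic list genes, which was 271 and 231 CPM in LysM-cKO R0D3 and 157 and 93.8 in LysM-cKO R40D3, and the part of such cells was not tested.

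Of the 8 genes with the smallest p in the fit without pairing, 6 besides Ighm and Pira2 remain. Jag1, a Notch ligand gene, had 23.8 and 21.0 CPM in Wt R0D3, 18.1 and 20.5 in Wt R40D3, 29.5 and 35.3 in LysM-cKO R0D3 and 15.7 and 16.1 in LysM-cKO R40D3. LysM-cKO lay above Wt in both libraries at R0D3 and below in both at R40D3, and the difference was -0.81 ± 0.19 (unadjusted p = 0.00338, edgeR). Nars2, mitochondrial asparaginyl-tRNA synthetase, had 5.36 and 4.97 CPM in Wt R0D3, 10.1 and 11.3 in Wt R40D3, 7.65 and 8.06 in LysM-cKO R0D3 and 8.09 and 9.24 in LysM-cKO R40D3, again with no overlap between genotypes in either culture, and a difference of -0.91 ± 0.23. Lrig1, a negative regulator of receptor tyrosine kinases, had 2.50 and 2.80 CPM in Wt R0D3, 2.77 and 2.63 in Wt R40D3, 3.51 and 4.06 in LysM-cKO R0D3 and 1.32 and 1.66 in LysM-cKO R40D3 and a difference of -1.38 ± 0.35. Gm13421 was at 0 in both Wt R0D3 libraries and at most 0.889 CPM elsewhere, so no fold is given. Cbfa2t2-ps1, a pseudogene, had 0.816 and 0.871 CPM in Wt R0D3, 0.628 and 0.305 in Wt R40D3, 0.287 and 0.303 in LysM-cKO R0D3 and 1.16 and 0.924 in LysM-cKO R40D3, and Zfp618, a zinc finger gene, 1.17 and 1.43 CPM in Wt R0D3, 2.09 and 1.89 in Wt R40D3, 2.53 and 3.46 in LysM-cKO R0D3 and 1.38 and 0.554 in LysM-cKO R40D3. All 8 had an adjusted p of 1.00 in edgeR without pairing, and none passed with the replicate number as a block.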

How the data were processed

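The authors deposited tables of counts per gene, unnormalised, for the cultures. The submitters' processing notes name FastQC 0.11.2, Trimmomatic 0.36, HISAT2 2.1.0, DESeq2 1.12.4 and the build GRCm38, with no role or order. The counting tool, annotation and strand setting are not given in the sources used here. Counts of the 8 libraries were joined by gene identifier. Names came from GENCODE vM21 for 55141 identifiers (99.5%), and other sequences from RefSeq. Genes were filtered with filterByExpr, scaled by TMM, and fitted with edgeR 4.0.16 (R 4.3.3) quasi-likelihood models of the 4 group means, with the difference in response as the contrast and adjustment over 14030 genes at 0.05. DESeq2 1.42.0 was an alternative. The fit was tested on simulated data. Within-number differences used log2 CPM with a prior count of 2. Lists are given by counts and medians with no test.

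Libraries of the same number deviated together from their group means (Pearson r from 0.34 to 0.61 over the 6 pairs of groups), so the numbers pair the samples. Blocked values are given beside some of the results whose call or count they change, and not for every list. Changes among the genes chosen by the rule are counted in the section on processing below. No 2 libraries of a group agreed within sampling noise. Standard errors and the ranking by p came from the fit without pairing. Named genes were Impdh2, the 8 genes with the smallest p, the leading blunted, enlarged and kept genes whose highest group mean reached 5 CPM, the 6 most abundant genes set apart, and up to 4 abundant response genes per list. List members singled out as blunted or enlarged, and a few named beside them, were chosen after their values were seen. Members, lists and rules were chosen with earlier results of these data known. No motif was compared between classes, since a promoter was matched for only 67.8% of blunted and 73.9% of enlarged rising genes. Some genes that the rule selected are not reported here.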

Additional observations from a re-analysis of the deposited data

Results flagged for a closer look

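In 2 of the named genes both Wt library pairs moved one way and both LysM-cKO pairs the opposite way. Cbfa2t2-ps1 had responses of -0.33 and -1.23 log2 in the 2 numbers in Wt and 1.66 and 1.31 in LysM-cKO, and its difference in response was 2.62. Zfp618 had 0.79 and 0.38 in Wt and -0.83 and -2.41 in LysM-cKO, with a difference of -2.21. Neither difference passed edgeR's test after adjustment, and both genes were under 4 CPM in all libraries.

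Summed levels of 16 stromal marker genes were higher at R40D3 than at R0D3 in both Wt pairs, with 2939 against 2415 CPM and 3012 against 2383. They were lower at R40D3 in both LysM-cKO pairs, with 2578 against 2731 CPM and 902 against 1069. The mean difference was -0.47 log2. The difference for this sum was not tested.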

How the results depend on the processing

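The count of genes with a difference in response was 0 in every fit tried, which were edgeR with other scalings, without the filter on low counts, with its older quasi-likelihood method, with the replicate block and with each of the 8 libraries left out, and DESeq2. The pairing moved the counts of responses: with the replicate block 3976 genes responded in Wt and 2983 in LysM-cKO, against 2370 and 1422 without it. Of the 148 genes chosen by the rule, the block added the Wt response call in 26, the LysM-cKO response call in 32 and the genotype call at R40D3 in 6, and it removed 0 calls. It changed no call of the average response or of the difference in response among them. Leaving out 1 library gave 2364 to 3522 calls for the average response, 689 to 2424 for Wt and 399 to 1317 for LysM-cKO, the lowest without Wt R40D3 replicate 2 for the first 2 and without LysM-cKO R0D3 replicate 2 for the last. Counts also moved by over 1.5 times without either Wt R0D3 library (average response without replicate 1 2386, Wt response 799 and 803, LysM-cKO response 879 and 877), and LysM-cKO calls were 754 without LysM-cKO R0D3 replicate 1 and 475 without LysM-cKO R40D3 replicate 2. Class counts depend on the size used: at 0.3 log2 441 genes were blunted and 79 enlarged, and at 1 log2 22 and 2, against 139 and 42 at 0.5. With a single replicate number deciding, 322 to 391 were blunted, 98 to 192 enlarged and 2949 to 2974 kept. With response genes chosen by the replicate block, 4103 were kept. The median signed difference of response genes, -0.13, was -0.10 with that choice and -0.15 to -0.11 with 1 number. Leaving out Wt R0D3 replicate 2 turned the difference of Impdh2 from 0.08 to -0.10 (0.24 at most with another library left out), and the other 405 values of named genes' differences recomputed kept their direction. Besides Impdh2, these genes had been named for a small p or for a large difference in both numbers, and that choice favours a kept direction. For genes named only as kept, set apart or list members the difference was not recomputed. In 7 alternatives added after seeing the data, the rise was smaller in LysM-cKO in both numbers in 984 to 1581 genes, 56.0% to 64.2% of those that rose. Many list medians changed sign with 1 library left out in the fit without pairing, among them the transcription factors, receptors, fusion genes, repressors, macrophage genes and cholesterol synthesis. Medians further from 0 did so too. They went from -0.18 up to 0.57 for interferon-stimulated genes, -0.18 to 0.06 for glycolysis, -0.17 to 0.02 for mitochondrial genome transcripts and -0.10 to 0.14 for chemokines and cytokines. Those of bone resorption, podosome, TCA cycle, lysosome and ribosome assembly genes stayed below 0, and that of p53 targets above 0. With 2 libraries a group, the precision of a difference in response is set by their number, and low genes such as Lockd or Cbfa2t2-ps1 rest on few reads.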

Other observations

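Genes for cytosolic ribosomal proteins differed in the direction opposite to the mitochondrial lists. Of 45 tested, 34 had a difference in response above 0 in both replicate numbers and 1 below 0 in both, against 28.4% and 32.8% of all genes, with a median of 0.10 log2 (0.08 and 0.11). Only Rps23 among them was a response gene, with responses of 0.23 and 0.77. Leaving out one LysM-cKO R40D3 library gave 0.24 (replicate 1) or -0.01 (replicate 2). Of 34 targets of p53, 18 were above 0 in both numbers and 8 below 0 in both, with a median of 0.10 (0.18 and 0.11). Sesn1, a stress-induced sestrin gene, had 264 and 273 CPM in Wt R0D3, 192 and 189 in Wt R40D3, 246 and 244 in LysM-cKO R0D3 and 218 and 218 in LysM-cKO R40D3 and fell by 0.50 log2 in Wt, while its LysM-cKO value of -0.17 did not pass. Cdkn1a, the p21 inhibitor of cell division, had 274 and 307 CPM in Wt R0D3, 206 and 189 in Wt R40D3, 336 and 432 in LysM-cKO R0D3 and 263 and 298 in LysM-cKO R40D3 and was higher in LysM-cKO within each number in both cultures, with a difference in response of 0.10. Cholesterol synthesis genes were lower at R40D3 in both genotypes: 16 of 23 fell on average and 14 of 16 response genes were kept, with a median difference of 0.09 (0.23 and 0.01).

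Summed levels of 30 mitosis genes were higher in LysM-cKO than in Wt within each number in both cultures: 692 against 486 CPM and 1522 against 698 at R0D3, and 483 against 406 and 834 against 378 at R40D3. The median genotype difference of these genes was 1.01 log2 at R0D3 and 0.77 at R40D3, and the median difference in response was -0.17 (-0.28 and 0.003), or 0.56 without LysM-cKO R0D3 replicate 2, the library with the highest sum. In the fit without pairing 0 of the 30 mitosis genes passed as falling in Wt and 0 in LysM-cKO. With the replicate number as a block 2 and 13 did, against 1630 and 1153 of all 14030 genes. The part of cell division in the other results was not tested. The median difference of 36 DNA replication genes was -0.30 (-0.15 and -0.29), and it was 0.26 without LysM-cKO R0D3 replicate 2. Without pairing 1 of them passed as falling in each genotype, and with the block 1 in Wt and 11 in LysM-cKO. Such counts do not test the difference in response. Pcna, the sliding clamp of DNA polymerases, had 171 and 202 CPM in Wt R0D3, 99.2 and 91.1 in Wt R40D3, 168 and 282 in LysM-cKO R0D3 and 82.9 and 105 in LysM-cKO R40D3 and was kept. The MHC class II genes Cd74 and H2-Aa were lower in LysM-cKO within each number in both cultures, with near-equal rises: Cd74 had 62.4 and 72.1 CPM in Wt R0D3, 166 and 125 in Wt R40D3, 31.0 and 48.7 in LysM-cKO R0D3 and 87.7 and 86.9 in LysM-cKO R40D3 and responses of 1.11 and 1.13. The list did not move as 1: of 8 genes tested 5 were kept and 1 divided, and the median difference was -0.05 (-0.21 and 0.11). With the block 4 rose and 0 fell in Wt, and 3 rose and 2 fell in LysM-cKO. Interferon-stimulated genes had median differences of -0.37 in number 1 and 0.22 in number 2, and 0 of 26 were response genes. Of 23 purine and guanine nucleotide synthesis genes 6 were response genes, 5 of them kept and 1 divided, and the median difference was -0.02.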
